A study of Mus musculus with 14 samples.

Results

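The comparison described here sets heat-shocked B16-F10 cells against untreated cells of the same line. B16-F10 is a mouse melanoma cell line, labelled with the strain C57BL/6J, and the study used it to ask how lipofection disturbs cells, with heat shock as one of its comparison treatments. The comparison takes 3 arrays of heat-shocked cells and 5 arrays of control cells out of 14 arrays in all, and no array was chosen by its values. The heat-shocked cells were kept at 42.5 °C for 1 h and then recovered for 30 min at 37 °C. The control cells received no treatment. All cells of both groups were grown at 37 °C in RPMI medium with 10% fetal bovine serum. The other arrays hold 3 samples of cells given Lipofectamine for 3 h in Opti-MEM, with 30 min of recovery in medium with serum, and 3 samples of cells given 40 mM benzyl alcohol for 1 h. The Lipofectamine arrays served here to estimate the spread and for a direct comparison with heat shock.

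The arrays are Affymetrix mouse expression arrays. A probeset on them is a group of short probes designed for the RNA of a gene. The values are log2 signals from RMA, so that a change of 1 stands for a doubling of the signal. All 22626 probesets other than the Affymetrix controls were compared, and they report 12393 genes with a single symbol. A change passed when its adjusted p from limma was under 0.05 over all probesets. Many changes are also given against control replicates 1 and 3 and against control replicates 2, 4 and 5, since the control arrays fall into these sets. A change given without these sets is against all 5 controls, and may depend on the set. Calls of St13, Bag5, Cct8, Mt1, Cdk4 and Pold1, among others, did not pass by limma against control replicates 1 and 3. Every array is labelled a biological replicate of a single cell line, and nothing says whether replicates were grown or treated on separate days, so the p-values measure the spread between these samples only.

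Heat unfolds proteins. The transcription factor HSF1 then binds heat shock elements, which are inverted repeats of GAA in promoters, and switches on chaperone genes. In the chaperone cycle, small heat shock proteins hold unfolded proteins in solution, DnaJ proteins hand them to HSP70, exchange factors let HSP70 release them, and HSP90 with its co-chaperones completes the folding of kinases and receptors. Severe heat also disturbs splicing, ribosome assembly and the cell cycle in mammalian cells.

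The heat shock arrays resembled each other closely, with correlations of 0.9954 to 0.9971 over all probesets. They correlated at 0.9858 to 0.9893 with control replicates 1 and 3, and at 0.9748 to 0.9813 with control replicates 2, 4 and 5. The control sets correlated with each other at 0.9793 to 0.982, and at 440 probesets their means differed at least 2-fold. Array medians were 7.03 to 7.12, which RMA sets and which is no check of quality. Of 18 measured melanocyte markers, 13 had a control mean above 8, against 2 of 12 epithelial, 1 of 12 fibroblast and 0 of 11 leukocyte markers. In RNA of whole cultures, fewer cells of a kind and less RNA per cell cannot be told apart.

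After heat shock 1349 probesets of 1046 genes differed from the control. Of these 237 probesets in 175 genes were higher, which is 1.05% of all tested, and 1112 probesets in 874 genes were lower, which is 4.91%. The lower probesets made up 82.4% of the calls, but 67.6% when the arrays were quantile normalized again. Only the changes of at least 4-fold were mostly rises. Among the probesets that changed at least 2-fold, 39 (26 genes) were higher and 106 (83 genes) lower, while at least 4-fold changes were seen at 16 higher (11 genes) and 2 lower probesets (1 gene). At least 8-fold changes were seen at 9 higher and 0 lower probesets, and those 9 report 5 genes. Every heat shock array lay above every control array at 234 of the 237 higher probesets, and below every control array at 1034 of the 1112 lower ones, where 17.8% of all probesets had groups that did not overlap in either direction. The counts depended on single arrays. Without heat shock replicate 2 there were 61 higher and 198 lower probesets, and without control replicate 3 there were 630 and 2028. Calls that passed with each of the 11 arrays left out in turn numbered 55 higher (35 genes) and 140 lower (113 genes).

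**Figure D1:**
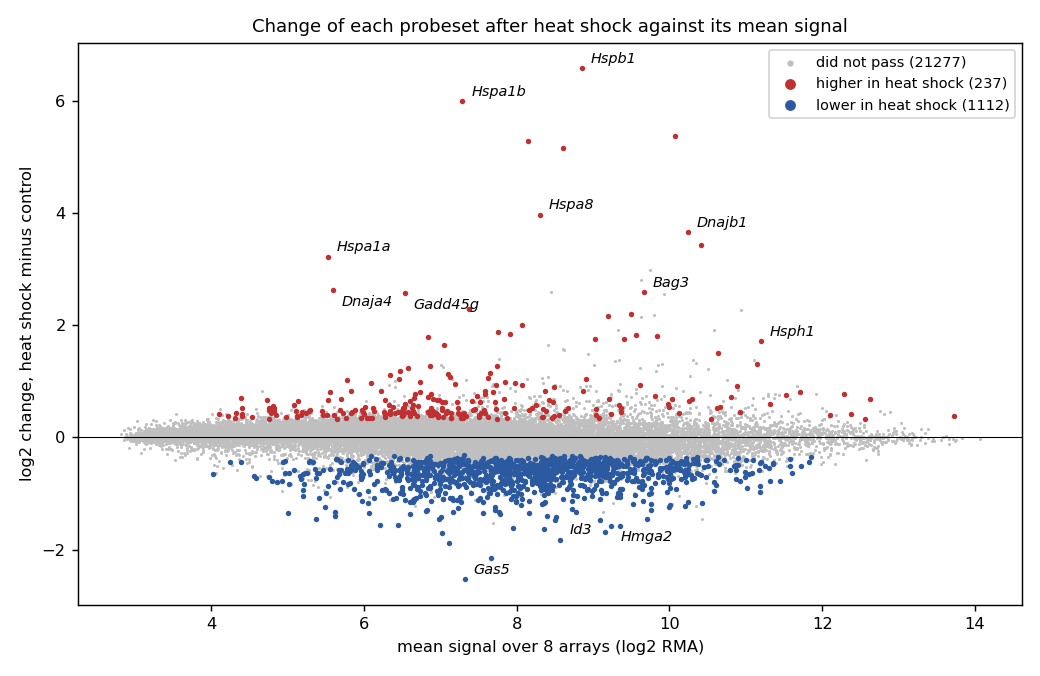
Log2 change of each probeset (heat shock minus control, vertical axis) against its mean log2 RMA signal over the 8 arrays (horizontal axis), with 237 higher probesets in red, 1112 lower in blue and the rest in grey. Of the called changes above 2 in size only those of Gas5 (−2.53 and −2.14) are falls, and the other falls form a broad band.

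The falls were spread unevenly over signal. With the probesets split by mean signal into 4 sets of equal size, 1.01% fell in the dimmest set, and 3.31%, 8.19% and 7.16% fell in the next sets in order of brightness. The rises took 0.778%, 1.38%, 1.13% and 0.902% of the same sets.

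Among the probesets that passed against all 5 controls, the control sets moved the median of the falls more than that of the rises. A probeset that splits the control sets has a wide spread and passes less easily, so these medians do not describe all probesets. Over all probesets 156 were higher and 685 lower against control replicates 1 and 3 only. Against control replicates 2, 4 and 5 only the counts were 1654 and 3276. The 237 higher probesets had a median log2 change of 0.52, with 0.48 against control replicates 1 and 3 and 0.54 against control replicates 2, 4 and 5. The 1112 lower ones had −0.60, with −0.46 and −0.68. The change against control replicates 1 and 3 was less than 0.5 times that against control replicates 2, 4 and 5 at 33 of the higher and 297 of the lower probesets. The fits with a single control set also kept the Lipofectamine arrays for the spread. Of the higher probesets 98 (69 genes) also passed as higher against both control sets, and of the lower 340 (270 genes) as lower. With control replicates 2, 4 and 5 alone 235 and 1103 of these calls passed, and with control replicates 1 and 3 alone 98 and 347 did. No called probeset changed its direction with either set, but opposite changes against the sets widen the spread and hinder a call. It is therefore no check of the calls.

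**Figure D2:**
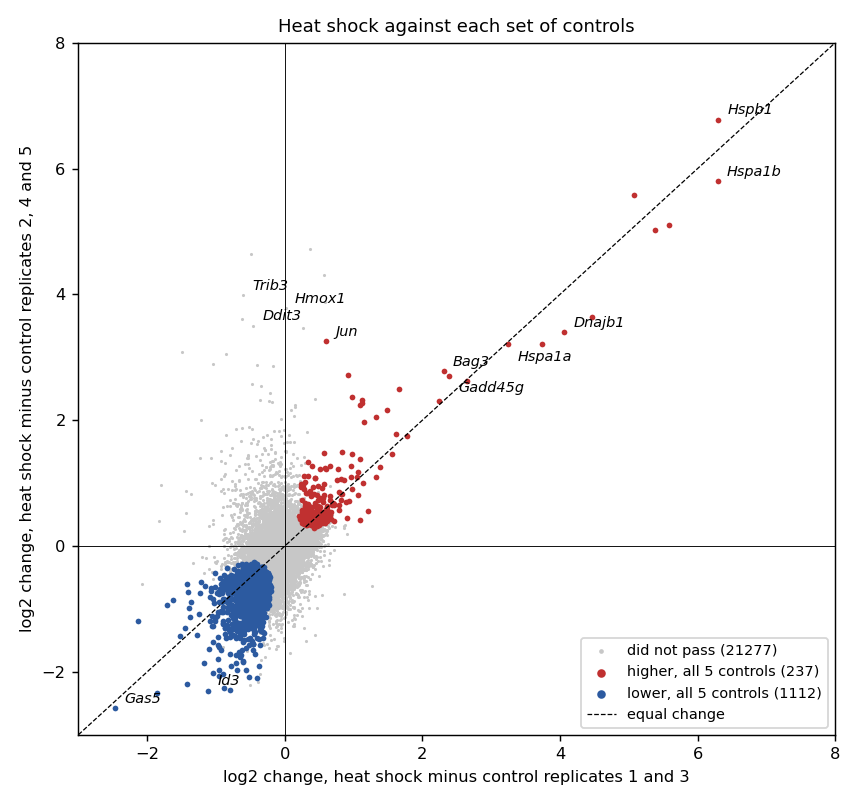
Each probeset's log2 change in heat shock against control replicates 1 and 3 (horizontal axis) and against control replicates 2, 4 and 5 (vertical axis), with the calls against all 5 controls in colour and a dashed line of equal change. The named points of Hspb1, Hspa1b, Hspa1a, Dnajb1 and Bag3 lie near the line, while those of Jun (0.60 and 3.25), Trib3 (−0.61 and 3.98), Ddit3 and Hmox1 lie far above it.

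The HSP70 genes Hspa1b, Hspa8 and Hspa1a were among the 5 genes with the largest rises. Of 10 measured HSP70 and HSP110 genes, read at the brightest probeset of each, 4 rose and 0 fell, with a median log2 change of 0.39 beside 0.04 over all genes. Among all 12393 genes read in this way 0.888% rose and 4.15% fell. Against control replicates 1 and 3 alone 5 of the 10 rose and 0 fell, where 0.71% and 2.85% of all genes did, and against control replicates 2, 4 and 5 alone 4 rose and 1 fell, where 7.89% and 12.7% of all genes did. Hspa1b and Hspa1a encode the inducible HSP70 proteins. They are near-identical copies, so which of them a probeset reports is uncertain.

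The Hspa1b signal at probeset 1427126_at was 10.96, 11.08 and 11.07 in the heat shock arrays, against 5.19, 5.44, 4.30, 5.14 and 5.13 in the control arrays. Every heat shock array was far above every control, and control replicate 3 stood below the other controls. The change was 6.00 (SE 0.189, adjusted p = 2.47e-10), with 6.29 against control replicates 1 and 3 and 5.80 against control replicates 2, 4 and 5. Its other probesets changed by 5.29 (1427127_x_at) and, at the brightest (1452318_a_at), by 5.17, or 35.9-fold. The control signals at 1427126_at are as low as those of the dimmest of the 4 sets above and no detection call was used, so no fold is given for it. At the Hspa1a probeset the signal was 7.78, 7.19 and 7.65 in the heat shock arrays, against 4.40, 4.44, 4.19, 4.43 and 4.13 in the control arrays. The groups lay wide apart, and the change of 3.22 (SE 0.133, adjusted p = 6.08e-09) was as large against control replicates 1 and 3 (3.25) as against control replicates 2, 4 and 5 (3.21). The probesets of Hspa1b and Hspa1a differed when the Lipofectamine arrays served as the base. The Hspa1b change at 1427126_at then shrank to 3.58, since the Lipofectamine arrays stood at 7.48, 7.5 and 7.38, while the Hspa1a change was 3.16 with Lipofectamine arrays at 4.26, 4.39 and 4.49. Control and Lipofectamine signals at the Hspa1a probeset are also as low as those of the dimmest set. A difference between the genes themselves is therefore not shown.

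Hspa8 encodes HSC70, the HSP70 of unstressed cells, and its 4 probesets disagreed. At 1431182_at the signal was 10.88, 11.22 and 10.27 in the heat shock arrays, against 6.28, 7.39, 6.38, 7.05 and 6.99 in the control arrays. No heat shock array overlapped the controls, and the change was 3.97 (SE 0.263, adjusted p = 1.47e-06). At the 3 brighter probesets the changes were only 0.41 to 0.48. Of these, 1420622_a_at (0.45, adjusted p = 0.0304) and 1455789_x_at (0.41, adjusted p = 0.0266) passed, each call lost without control replicate 4 or any heat shock array. The brightest, 1420623_x_at, did not pass (0.48, adjusted p = 0.0546), with 12.92, 13.06 and 13.18 in the heat shock arrays against 12.21, 12.87, 12.43, 12.67 and 12.70 in the control arrays.

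Hsph1, an HSP110 chaperone that makes HSP70 exchange its nucleotide, had 12.42, 12.14 and 12.24 in the heat shock arrays, against 10.72, 10.43, 10.59, 10.51 and 10.50 in the control arrays at 1425993_a_at. Both groups were well apart and the change was 1.71 (SE 0.102, adjusted p = 4.58e-07), with 1.76 at its other probeset. Hspa4l, a relative of Hsph1, changed by 1.13 (SE 0.104, adjusted p = 4.27e-05). The calls given here for Hspa1b, Hspa1a, Hsph1 and Hspa4l held whichever array was left out. Of the other members Hspa2 (0.30, adjusted p = 0.0657), Hspa4 (−0.24, adjusted p = 0.225) and Hspa14 (−0.56, adjusted p = 0.0996) did not pass.

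The small heat shock proteins held the largest rise, that of Hspb1. Of 7 measured 3 rose and 0 fell (median 0.31), and the change of each of the 7 was above 0. Hspb1 encodes a chaperone that holds unfolded proteins and binds actin. At 1425964_x_at its signal was 12.68, 12.91 and 13.32 in the heat shock arrays, against 6.48, 6.15, 6.86, 6.18 and 6.26 in the control arrays. Every heat shock array was far above every control array. The change of 6.59 (SE 0.179, adjusted p = 6.76e-11) is 96.0-fold, with 6.30 against control replicates 1 and 3 and 6.78 against control replicates 2, 4 and 5. At the brighter 1422943_a_at it was 5.38 (SE 0.162), or 41.5-fold.

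Cryab, the crystallin that forms mixed complexes with HSPB1, was already bright in control cells. At 1434369_a_at it had 11.50, 11.45 and 11.77 in the heat shock arrays, against 9.94, 9.91, 10.08, 10.21 and 10.18 in the control arrays. The groups did not overlap and the change was 1.51 (SE 0.115, adjusted p = 6.35e-06), with 1.31 at the brightest probeset, while another did not pass (0.14, adjusted p = 0.508). Hspb8, the partner of BAG3 in clearing aggregates, had 8.95, 8.95 and 9.30 in the heat shock arrays at 1417013_at, against 7.83 and 8.05 in control replicates 1 and 3 and 6.89, 6.79 and 6.57 in control replicates 2, 4 and 5. All heat shock arrays stood above all controls, but the gap differed by control set. The change was 1.84 (SE 0.288, adjusted p = 0.00386), with 1.13 and 2.32 against the control sets. Its other probesets rose by 0.98 and 0.77, calls that were lost without any of 2 and any of 3 arrays. The other calls of Hspb1, Cryab and Hspb8 given here held whichever array was left out. Hspb2 (0.31, adjusted p = 0.192), Hspb3 (0.12), Hspb7 (0.10) and Cryaa (0.11) did not pass.

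The DnaJ proteins split into a few large rises and many members near 0. Of 20 measured 4 rose and 0 fell, and the median was 0. Dnajb1, the HSP40 that stimulates HSP70, had 12.27, 12.69 and 12.64 in the heat shock arrays at 1416755_at, against 8.39, 9.07, 8.55, 9.24 and 9.09 in the control arrays. The groups lay wide apart. The change was 3.66 (SE 0.190, adjusted p = 9.09e-08), or 12.7-fold, and was larger against control replicates 1 and 3 (4.06) than against control replicates 2, 4 and 5 (3.40). Dnaja4, a farnesylated DnaJ protein, had 7.64, 6.86 and 7.22 in the heat shock arrays at 1434196_at, against 4.74, 4.65, 4.44, 4.57 and 4.65 in the control arrays. All 3 of its probesets rose, by 2.63, 2.28 and 1.08. Dnajb4, a relative of Dnajb1, had 10.34, 10.51 and 10.77 in the heat shock arrays at 1451177_at, against 8.97 and 8.79 in control replicates 1 and 3 and 7.98, 8.16 and 8.01 in control replicates 2, 4 and 5. It rose by 2.16 (SE 0.225, adjusted p = 0.000184), with 1.66 and 2.49 against the control sets.

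Dnaja1, the abundant partner of HSC70, rose by 0.59 (SE 0.122, adjusted p = 0.0157), a call that was lost without heat shock replicate 2 (adjusted p = 0.102) or 3. The calls of Dnajb1, Dnaja4 and Dnajb4 held whichever array was left out. The list had 3 rises without heat shock replicate 2. Dnajc3 of the endoplasmic reticulum did not pass (0.81, adjusted p = 0.0937), nor did Dnajb2 (0.69, adjusted p = 0.343). The Dnajb2 signal was 8.89, 8.76 and 9.11 in the heat shock arrays, against 9.24 and 9.43 in control replicates 1 and 3 and 7.65, 7.22 and 7.59 in control replicates 2, 4 and 5, so the heat shock arrays lay between the control sets. Dnajb6 (−0.02), Dnajb12 (0.03) and Dnajc18 (−0.07) were close to 0.

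Among 11 HSP70 partners and exchange factors 3 rose and 1 fell (median 0.16). Bag3, which links HSP70 to small heat shock proteins and to autophagy, had 11.21, 11.03 and 11.60 in the heat shock arrays, against 8.95, 8.77, 8.98, 8.52 and 8.23 in the control arrays. Every heat shock array was above every control, and the change of 2.59 (SE 0.187, adjusted p = 3.33e-06) is 6.03-fold. St13, the HSP70-interacting protein HIP, had 11.15, 11.19 and 11.30 in the heat shock arrays, against 10.72, 10.71, 10.86, 10.76 and 10.71 in the control arrays. That small rise of 0.46 (SE 0.0937, adjusted p = 0.015) was lost without heat shock replicate 2 or 3, up to an adjusted p of 0.0939. Hyou1, an HSP70 relative of the endoplasmic reticulum, rose by 0.54 (adjusted p = 0.0328), with 0.25 against control replicates 1 and 3 and 0.73 against control replicates 2, 4 and 5, and its call was lost without any of 7 of the 11 arrays. Bag5, a brake on HSP70, fell by 0.52 (adjusted p = 0.0229), a call that was lost without control replicate 4 or any heat shock array. The list had 1 rise without heat shock replicate 2. Stip1 (0.21), Bag1 (0.04), Bag2 (0.16) and Stub1 (−0.28) did not pass.

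HSP90 and its co-chaperones changed little. Of 13 measured 3 rose and 0 fell (median 0.04, equal to that of all genes), but without heat shock replicate 3 there was no rise at all. Hsp90aa1, the inducible HSP90, was bright throughout, at 12.17, 12.48 and 12.43 in the heat shock arrays, against 11.97, 11.99, 11.76, 11.96 and 12.10 in the control arrays. The groups just failed to overlap and the change was 0.40 (SE 0.103, adjusted p = 0.0366), lost without any of 5 arrays. Ahsa2, related to an activator of the HSP90 ATPase, rose by 0.60 (SE 0.120, adjusted p = 0.0135), a call that was lost without heat shock replicate 1 (adjusted p = 0.0762) or 3. Chordc1, a co-chaperone, rose by 0.52 (adjusted p = 0.0215), lost without any heat shock array. Ahsa1 did not pass (0.38, adjusted p = 0.0785). Fkbp4, an HSP90 immunophilin, passed at its dimmer probeset 1416363_at (0.81, adjusted p = 0.0188, lost without any heat shock array) and not at the brighter 1416362_a_at (−0.18, adjusted p = 0.489). None of the 3 measured heat shock factor genes passed by limma, and 0 were under 0.05 by unadjusted p. These were Hsf2 (0.20), Hsf4 (−0.17) and the regulator Hsbp1 (0.21). Hsf1 was not analysed here.

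**Figure D3:**
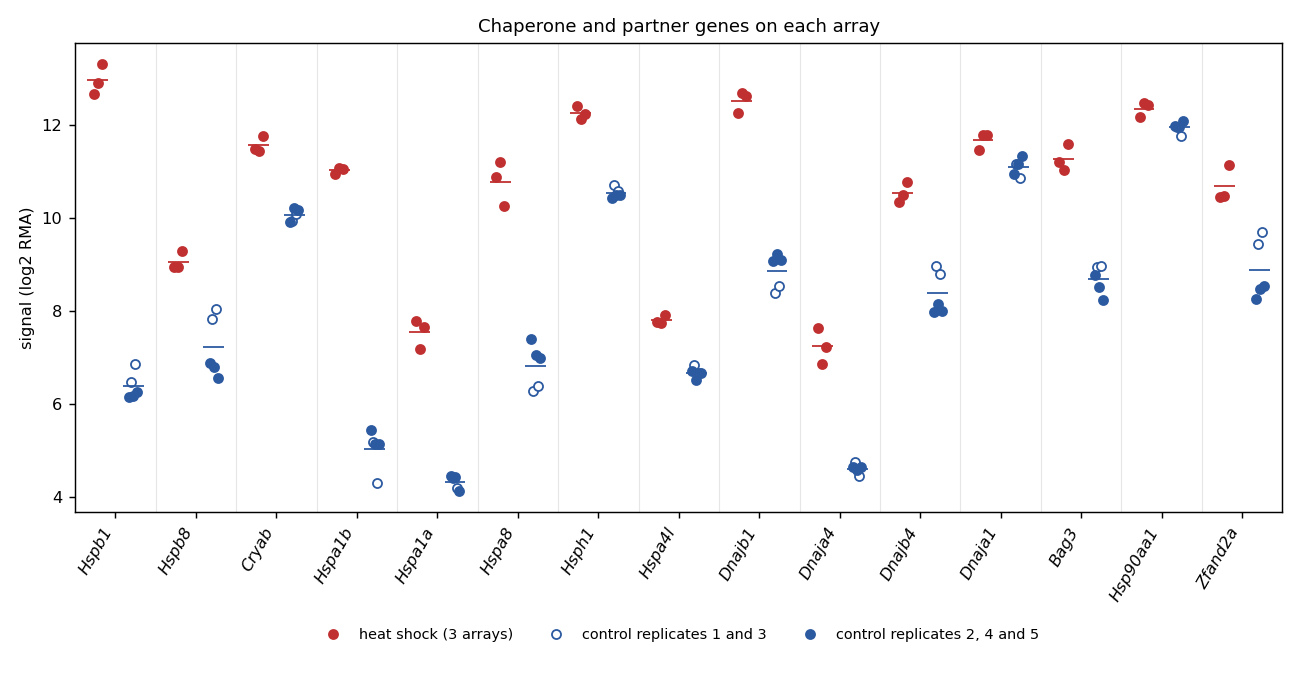
Log2 RMA signal of 1 probeset each of chaperone and co-chaperone genes in the heat shock arrays (left) and the control arrays (right), each point an array, control replicates 1 and 3 as open circles and horizontal lines for group means. Hspb1, Hspa1b and Dnajb1 are far apart in the groups, while Hsp90aa1 is separated by 0.40 only.

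Promoters of some genes that rose are shown because a known heat shock element is short enough to be read in them. The 250 bases before each gene start were searched on both strands for GAANNTTCNNGAA, where N is any base. The sequences come from RefSeq, build GRCm38.p6, with 9887 of the 12393 genes matched by symbol. Exact matches were found in 46 of these (0.465%) and in 1 of the 134 genes with a promoter among those that rose, Hspe1. A looser search, chosen after this had been seen, let 1 of the 9 fixed letters differ. It matched 590 of the 9887 genes (5.97%) and 6.08% of all promoters in the table. Among the 12 genes with the largest rises, 11 had a promoter in the table and 6 of these matched, and among the 12 with the largest falls 9 had one and 1, Luc7l2, matched. Of the largest rises Dnajb1, Bag3, Gadd45g, Jun and Hspb8 had a promoter and did not match. Rsrp1, P4ha2, Cox7c, Fkbp4, Coro1c, Dnaja1, Sema4b and Abcc5 also rose at a probeset and matched, but their windows are not shown. The windows below run 5′ to 3′ in the direction of the gene, with capitals for the fixed letters of the motif that match, and some hold overlapping matches.
Hspb1: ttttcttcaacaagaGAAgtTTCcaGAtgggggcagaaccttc
Hspa1b: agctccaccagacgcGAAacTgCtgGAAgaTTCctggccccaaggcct
Hspa1a: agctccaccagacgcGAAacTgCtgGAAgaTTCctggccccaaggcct
Dnaja4: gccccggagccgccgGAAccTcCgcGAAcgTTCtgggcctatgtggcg
Dnajb4: ttcgttcgttcgctgTTCtaGAAagTaCa
Ccn1: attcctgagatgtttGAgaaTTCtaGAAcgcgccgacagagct
Hsph1: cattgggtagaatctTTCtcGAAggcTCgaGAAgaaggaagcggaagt
Zfand2a: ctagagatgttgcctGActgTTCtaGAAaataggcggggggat
Hspe1: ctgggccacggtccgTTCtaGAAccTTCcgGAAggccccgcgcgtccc

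The Hspb1 window lies at chr5:135887787-135887829 on the plus strand, and its match starts 117 bases before the gene start. Those of Hspa1b (chr17:34959320-34959367) and Hspa1a (chr17:34972238-34972285), both on the minus strand, are the same 48 bases, with the nearest match 109 bases before the start. Dnaja4 (chr9:54699444-54699491, plus) and Hspe1 (chr1:55088044-55088091, plus) have matches 95 and 84 bases before the start. The windows of Dnajb4 (chr3:152193846-152193874), Ccn1 (chr3:145650045-145650087), Hsph1 (chr5:149636337-149636384) and Zfand2a (chr5:139484665-139484707) are on the minus strand, with the nearest matches 14, 87, 28 and 201 bases before a start. All lie upstream of the annotated start of the gene they are named for.

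With 1 letter free the motif was found in 17 of 134 genes that rose (12.7%) and in 40 of 737 that fell (5.43%), beside 5.97% of all genes with a promoter. Among genes that rose against both control sets it was found in 14 of 53 (26.4%), and among those that fell against both in 11 of 228 (4.82%). It was found in 9 of 22 genes that rose at least 2-fold (40.9%) and in 3 of 66 that fell at least 2-fold (4.55%). These shares describe letters in a window of fixed length and were not tested.

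Chaperones outside the cytosolic HSP70 system mostly did not pass. Of 12 measured subunits of the TRiC chaperonin and prefoldin 0 rose and 1 fell (median −0.11). That was Cct8 (−0.41, adjusted p = 0.0472), lost without any of 7 arrays. Of 12 mitochondrial chaperones and proteases 0 rose at the brightest probeset and 1 fell (median 0.09). That was Grpel2, an exchange factor of mitochondrial HSP70, with 8.41, 8.28 and 8.46 in the heat shock arrays against 8.70, 8.88, 8.93, 8.95 and 8.95 in the control arrays. No heat shock array overlapped the controls, but the fall of 0.50 (adjusted p = 0.00907) was lost without heat shock replicate 2 (adjusted p = 0.0705). Hspe1, the mitochondrial HSP10, was named for its promoter, after its values were seen. At its dimmer probeset 1422579_at it had 11.01, 10.96 and 11.06 in the heat shock arrays, against 10.36, 10.42, 10.55, 10.58 and 10.42 in the control arrays, a rise of 0.54 that was lost without heat shock replicate 3 (adjusted p = 0.0604).

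Of 10 measured genes of ubiquitin and aggregate clearance 1 rose and 1 fell (median 0.07). Zfand2a, a zinc finger protein of the proteasome that answers arsenite and heat, had 10.46, 10.47 and 11.15 in the heat shock arrays, against 9.44 and 9.70 in control replicates 1 and 3 and 8.25, 8.48 and 8.53 in control replicates 2, 4 and 5. All heat shock arrays were above all controls. It rose by 1.82 (SE 0.298, adjusted p = 0.00482), with 1.13 and 2.28 against the control sets, and the call held whichever array was left out. Rnf4, a ubiquitin ligase for SUMO-bearing proteins, had 9.44, 9.54 and 9.54 in the heat shock arrays, against 10.72, 10.39, 9.74, 10.58 and 10.70 in the control arrays. It fell by 0.92 (SE 0.183, adjusted p = 0.0133), a call that was lost without any 1 heat shock array (adjusted p up to 0.0664). Of 31 proteasome subunits none passed by limma, with 1 higher by unadjusted p under 0.05, a median of 0.08 and changes of −0.12 to 0.41. Of 4 metallothionein and zinc response genes 2 rose, but without control replicate 4 none did. Mtf1, the zinc-sensing factor, rose by 0.50 (adjusted p = 0.0289), and Mt1, a metallothionein, by 0.32 (adjusted p = 0.0473). The Mtf1 call was lost without any of 5 arrays, and the Mt1 call without any of 8.

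The endoplasmic reticulum, ATF4 and NRF2 programs gave different answers against the control sets. ATF4 drives the integrated stress response, and NRF2 drives antioxidant enzymes. Of 20 genes under ATF4, 0 rose and 0 fell by limma against all controls although their median log2 change was 1.19, and 9 were higher by unadjusted p under 0.05. Against control replicates 1 and 3 the median was −0.20, with 1 rise and 3 falls, and against control replicates 2, 4 and 5 it was 2.12, with 19 rises. Of 20 NRF2 genes none passed by limma against all controls (median 0.52), with 10 higher by unadjusted p. Against control replicates 1 and 3 the median of the NRF2 genes was −0.13, with 0 rises and 1 fall, and against control replicates 2, 4 and 5 it was 0.86, with 13 rises. The random-variance test of the methods likewise called none of either list against all controls, while limma with array weights called 17 ATF4 genes and 12 NRF2 genes higher. Of 21 chaperones and folding enzymes of the endoplasmic reticulum 1 rose, the Hyou1 described above, with a median of 0.52 that became −0.06 and 0.94 against the control sets. Against control replicates 1 and 3 there were 0 rises and 2 falls, while all 21 rose against control replicates 2, 4 and 5. Leaving out a single control also moved these counts. Without control replicate 3 there were 11 rises among the ATF4 genes and 10 among the NRF2 genes, and without control replicate 1 there were 10 among those of the endoplasmic reticulum.

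Single genes show the same split, and the following were named after their values were seen. Ddit3, the stress factor CHOP, had 11.88, 11.77 and 11.69 in the heat shock arrays, against 12.28 and 12.19 in control replicates 1 and 3 and 8.27, 8.43 and 8.13 in control replicates 2, 4 and 5. The heat shock arrays were thus close to the first set and far above the second, and the change of 1.92 did not pass (SE 0.869, adjusted p = 0.209). Hmox1, heme oxygenase, had 12.22, 12.30 and 12.54 in the heat shock arrays, against 12.29 and 12.39 in control replicates 1 and 3 and 8.40, 8.78 and 8.53 in control replicates 2, 4 and 5. Trib3, a pseudokinase under ATF4, had a change of −0.61 against control replicates 1 and 3 (adjusted p = 0.0385), so that it was called lower there, and of 3.98 against control replicates 2, 4 and 5. Hspa5, the HSP70 of the endoplasmic reticulum known as BiP, had 13.13, 13.24 and 13.16 in the heat shock arrays, against 13.30 and 13.22 in control replicates 1 and 3 and 12.37, 12.31 and 12.37 in control replicates 2, 4 and 5.

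**Figure D4:**
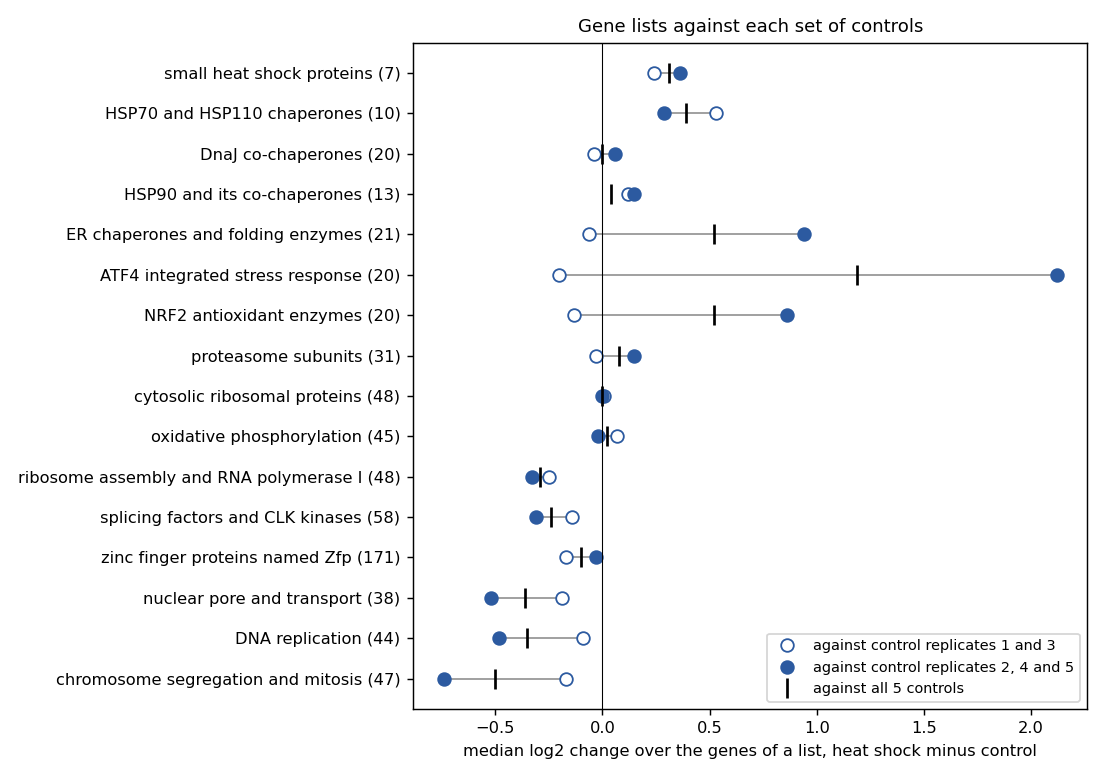
Median log2 change (heat shock minus control) of the genes of each list, against all controls, against control replicates 1 and 3 and against control replicates 2, 4 and 5. The ATF4 list runs over the widest range, with medians of −0.20 and 2.12 against the control sets, while that of the HSP70 and HSP110 chaperones stays above 0 against each.

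Immediate early genes, which cells transcribe within minutes of a stimulus, moved in both directions. Of 44 measured 6 rose and 4 fell (median 0.18), with 7 rises and 6 falls against control replicates 1 and 3 and 20 rises and 7 falls against control replicates 2, 4 and 5. Without heat shock replicate 2 there were 3 rises, and without control replicate 1 there were 10. Gadd45g, a growth arrest protein that activates stress kinases, had 8.10, 7.90 and 8.45 in the heat shock arrays, against 5.71, 5.32, 5.80, 5.61 and 5.38 in the control arrays. The groups lay wide apart, and the change was 2.58 (SE 0.166, adjusted p = 1.04e-06). Fos, a subunit of AP-1, had 8.51, 8.22 and 8.87 in the heat shock arrays, against 7.36, 6.85, 7.52, 7.16 and 7.44 in the control arrays, a rise of 1.27 (SE 0.169, adjusted p = 0.00136). Zfp36l1, which marks AU-rich mRNAs for decay, rose by 1.05 (SE 0.162, adjusted p = 0.00354). These calls held whichever array was left out.

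Jun, the partner of Fos, split with the controls. At 1448694_at it had 10.91, 10.91 and 10.78 in the heat shock arrays, against 10.27 and 10.26 in control replicates 1 and 3 and 7.90, 7.5 and 7.44 in control replicates 2, 4 and 5. All heat shock arrays were above all controls, by little for the first set and by far for the second. The rise of 2.19 (SE 0.589, adjusted p = 0.0446) was 0.60 and 3.25 against these sets and was lost without any of 9 arrays. Its brighter probeset 1417409_at did not pass (2.56, adjusted p = 0.0553). Ccn1, a secreted matrix protein induced early by growth factors, rose by 2.0 (SE 0.453, adjusted p = 0.0239) with 0.92 and 2.72 against the control sets, a call that was lost without any of 5 arrays.

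Fos and Jun also set heat shock apart from Lipofectamine, in opposite directions. In the same fit 295 probesets (1.30%) were higher after heat shock than after Lipofectamine and 999 (4.42%) lower. Fos stood at 10.76, 10.98 and 10.55 in the Lipofectamine arrays, so that heat shock was lower by 2.23 on the log2 scale (adjusted p = 1.96e-05). Jun stood at 8.32, 8.53 and 8.14 there at 1448694_at, and heat shock was higher by 2.54 (adjusted p = 0.039), while its other probeset did not pass (2.08, adjusted p = 0.163). Gadd45g was higher after heat shock by 0.79 (adjusted p = 0.0239) and Ccn1 did not differ detectably (0.03, adjusted p = 0.983). The chaperones Hspb1 (5.86), Dnajb1 (3.41 and 2.7 at its probesets), Dnaja4 (2.58) and Cryab (1.58) were higher after heat shock than after Lipofectamine, and Hspb8 (0.61, adjusted p = 0.309) and Dnaja1 (0.06, adjusted p = 0.828) did not pass.

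Myc, Klf10 and the ERK feedback gene Spred2 fell. Myc, a transcription factor of growth, had 8.00, 8.05 and 8.47 in the heat shock arrays, against 9.69, 9.47, 9.70, 9.64 and 9.73 in the control arrays. The groups did not overlap, and the change of −1.47 (SE 0.119, adjusted p = 1.17e-05) was alike against control replicates 1 and 3 (−1.52) and control replicates 2, 4 and 5 (−1.44). Klf10, a Kruppel-like repressor downstream of TGF-beta, had 5.58, 5.77 and 5.73 in the heat shock arrays, against 6.73, 6.77, 6.79, 6.80 and 6.85 in the control arrays. It fell by 1.09 (SE 0.111, adjusted p = 0.000141), and the Lipofectamine arrays were as low, at 5.89, 5.70 and 5.36. Klf15, another factor of this family, fell by 1.00 (adjusted p = 0.00364). Of 14 ERK feedback inhibitors 3 fell and 0 rose, with 2 falls against control replicates 1 and 3 and, against control replicates 2, 4 and 5, 5 falls and 3 rises. The falls were 1 without heat shock replicate 1 and 5 without control replicate 1. Spred2, which restrains the kinase RAF, fell by 0.86 (SE 0.140, adjusted p = 0.00456). Dusp6, the phosphatase of ERK, had 9.09, 9.05 and 9.97 in the heat shock arrays, against 9.93, 9.95, 10.07, 10.19 and 9.96 in the control arrays, so that heat shock replicate 3 overlapped the controls. It fell by 0.65 (adjusted p = 0.0434), lost without any of 8 arrays.

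The deepest fall was that of Gas5, a noncoding gene whose introns hold small nucleolar RNAs, and it was seen at only part of its probesets. At 1436222_at the signal was 5.24, 5.76 and 6.21 in the heat shock arrays, against 8.28, 8.14, 8.12, 8.30 and 8.49 in the control arrays. At 1424843_a_at it was 6.21, 6.46 and 6.31 in the heat shock arrays, against 8.25, 8.72, 8.11, 8.64 and 8.62 in the control arrays. The groups lay wide apart at both, and the changes were −2.53 (SE 0.175, adjusted p = 2.18e-06) and −2.14 (SE 0.144, adjusted p = 1.62e-06). Its 2 brighter probesets did not pass. At 1449410_a_at the signal was 11.78, 11.71 and 11.67 in the heat shock arrays, against 12.22 and 12.29 in control replicates 1 and 3 and 11.59, 11.61 and 11.43 in control replicates 2, 4 and 5, a change of −0.11 (adjusted p = 0.751). At 1419291_x_at the change was −0.04 (adjusted p = 0.906).

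Hmga2 and Luc7l2 also fell deeply, and the calls at the first probeset given for each held whichever array was left out. Hmga2, an architectural protein of chromatin, had 8.15, 8.47 and 8.12 in the heat shock arrays at 1450780_s_at, against 9.50, 10.04, 9.34, 9.89 and 10.39 in the control arrays. It fell by 1.59 (SE 0.194, adjusted p = 0.000678), and its other probesets by 1.47 and 1.46, the last of these lost without heat shock replicate 3 (adjusted p = 0.0584). Luc7l2, a component of the splicing machinery, had 5.14, 5.69 and 5.58 in the heat shock arrays, against 7.61 and 7.60 in control replicates 1 and 3 and 6.44, 6.67 and 6.88 in control replicates 2, 4 and 5. Its fall of 1.57 was larger against the first set (−2.14) than against the second (−1.19), whereas the median fall was smaller against the first. Another of its probesets fell by 0.84 (adjusted p = 0.0229), and the brightest did not pass (0.06, adjusted p = 0.794).

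Id3, Id2 and Id1 encode inhibitors of basic helix-loop-helix factors and are targets of BMP signals. Of 26 genes of the ID, SMAD and TGF-beta feedback group 6 fell and 0 rose (median −0.06), but none fell without heat shock replicate 2 and 9 fell without control replicate 3. The falls numbered 3 against control replicates 1 and 3 and 9 against control replicates 2, 4 and 5. Id3 had 7.57, 7.1 and 7.62 in the heat shock arrays, against 8.25 and 8.84 in control replicates 1 and 3 and 9.53, 9.63 and 10.04 in control replicates 2, 4 and 5. It was below all controls and fell by 1.83 (SE 0.313, adjusted p = 0.00621), with −1.11 and −2.30 against the control sets, and its adjusted p was 0.0509 without heat shock replicate 2. Id2 fell by 1.46 (adjusted p = 0.0342) and Id1 by 1.02 (adjusted p = 0.0275), with −0.52 and −0.45 against control replicates 1 and 3, where neither passed. The Id2 call was lost without any of 7 arrays and the Id1 call without any of 5.

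Met, Tmpo, Deptor and Zfyve21 also had larger changes against control replicates 2, 4 and 5 than against control replicates 1 and 3. Met, the receptor of hepatocyte growth factor, had 8.16, 8.19 and 7.97 in the heat shock arrays, against 9.43 and 8.37 in control replicates 1 and 3 and 10.16, 10.16 and 10.85 in control replicates 2, 4 and 5. It fell by 1.69 (SE 0.384, adjusted p = 0.0243), lost without control replicate 4 or any heat shock array, and the change of −0.79 against control replicates 1 and 3 did not pass (adjusted p = 0.0514), beside −2.28 against the other set. Tmpo, a protein of the nuclear envelope, fell by 1.62 (adjusted p = 0.01) at 1 probeset, with −0.96 and −2.06 against the control sets, a call lost without heat shock replicate 1 (adjusted p = 0.0581) or 3. Its brightest probeset did not pass (−0.31, adjusted p = 0.0923). Deptor, an inhibitor of mTOR, had 6.26, 6.04 and 6.07 in the heat shock arrays, against 6.66 and 6.39 in control replicates 1 and 3 and 8.09, 8.16 and 8.41 in control replicates 2, 4 and 5. Its fall of 1.42 (adjusted p = 0.046) was lost without any of 9 arrays. Against control replicates 1 and 3 it did not pass (−0.40, adjusted p = 0.109), nor did its brightest probeset against all controls (−0.49, adjusted p = 0.327). Zfyve21 fell by 1.40 (adjusted p = 0.0213), with −0.71 and −1.86 against the control sets, lost without any heat shock array, while its brighter probeset did not pass (−0.69, adjusted p = 0.071).

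**Figure D5:**
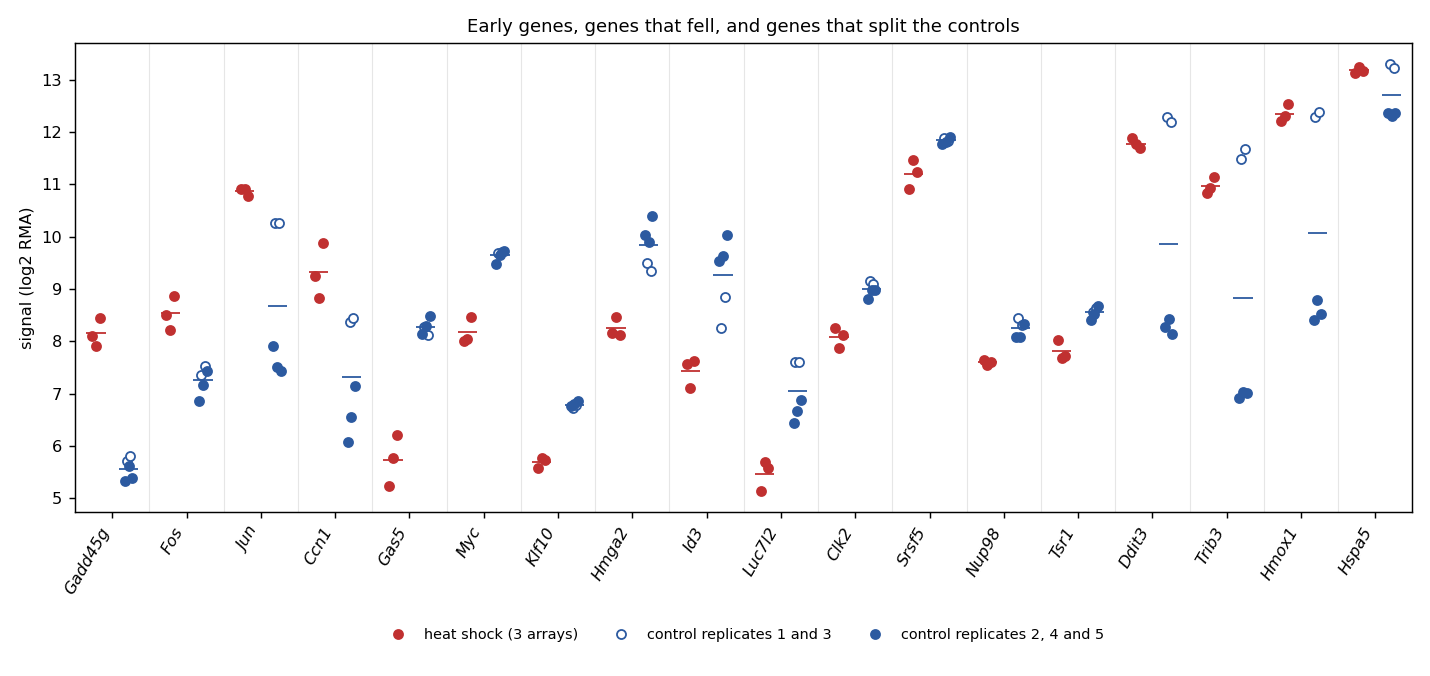
Log2 RMA signal of 1 probeset each of genes outside the chaperone lists in the heat shock arrays (left) and the control arrays (right), each point an array, control replicates 1 and 3 as open circles and horizontal lines for group means. Gadd45g, Myc and Gas5 separate the groups against both control sets, whereas in Ddit3 and Hmox1 the heat shock arrays lie with control replicates 1 and 3.

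Of 48 measured genes of ribosome assembly and RNA polymerase I 8 fell and 0 rose, and 42 changes were below 0 (median −0.29). The falls numbered 3 against control replicates 1 and 3 (median −0.25) and 21 against control replicates 2, 4 and 5 (median −0.33), where 2.85% and 12.7% of all genes fell. Only 2 fell without heat shock replicate 3, and without control replicate 1 there were 16. Tsr1, which matures the small ribosomal subunit, had 8.02, 7.68 and 7.72 in the heat shock arrays, against 8.56, 8.41, 8.64, 8.52 and 8.67 in the control arrays. It fell by 0.75 (SE 0.128, adjusted p = 0.00599). Nol11, a factor for ribosomal RNA, fell by 0.62 (SE 0.106, adjusted p = 0.00599), and both calls held whichever array was left out. Nolc1, a nucleolar chaperone of small nucleolar RNPs, fell by 0.78 (adjusted p = 0.0119), lost without heat shock replicate 1 (adjusted p = 0.0689) or 3. Nop2, an RNA methylase, fell by 0.58 (adjusted p = 0.0143), lost without heat shock replicate 2 (adjusted p = 0.102) or 3. Of the 48 measured ribosomal proteins themselves 1 rose and 0 fell (median 0). That was Rpl27a (0.98, adjusted p = 0.0109), read at probeset 1437729_at and lost without heat shock replicate 2 (adjusted p = 0.0793) or 3. The Rpl27a signal was 7.13, 7.53 and 7.4 in the heat shock arrays, against 6.84, 6.11, 6.66, 6.4 and 5.86 in the control arrays. These control signals were below the median of each control array.

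Of 58 measured splicing factors and CLK kinases 9 fell and 0 rose, with 52 changes below 0 (median −0.24). There were 4 falls against control replicates 1 and 3 (median −0.14) and 24 against control replicates 2, 4 and 5 (median −0.31), and without heat shock replicate 1 there was 1. Clk2, a kinase of SR proteins, had 8.26, 7.87 and 8.12 in the heat shock arrays, against 9.16, 8.81, 9.10, 8.98 and 8.97 in the control arrays. The groups did not overlap, and the change was −0.92 (SE 0.110, adjusted p = 0.000636), with −1.04 and −0.84 against the control sets. Srsf5, an SR protein, fell by 0.64 (adjusted p = 0.00922), lost without heat shock replicate 1 (adjusted p = 0.0501). Hnrnpk, an RNA-binding protein, fell by 0.58 (adjusted p = 0.0117), lost without heat shock replicate 1 or 3 (adjusted p = 0.0745). The helicase Ddx17 fell by 0.46 (adjusted p = 0.0195), lost without any heat shock array. Of 19 cleavage and polyadenylation factors 2 fell, among them Cstf1 (−0.70, SE 0.108, adjusted p = 0.00364), whose call held whichever array was left out. Without control replicate 4 there was 1 fall in that list, and without control replicate 3 there were 4, while the control sets gave 1 fall (replicates 1 and 3) and 6 (replicates 2, 4 and 5).

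Of 38 measured genes of the nuclear pore and nuclear transport 10 fell and 0 rose, each of the 38 changes was below 0, and the median was −0.36. Falls numbered 3 against control replicates 1 and 3 (median −0.19) and 24 against control replicates 2, 4 and 5 (median −0.52). Without heat shock replicate 3 the falls were 3, and without control replicate 1 they were 18. Nup62, a protein of the central channel, had 9.81, 9.57 and 9.67 in the heat shock arrays, against 10.70, 10.27, 10.54, 10.24 and 10.38 in the control arrays. It fell by 0.74 (SE 0.118, adjusted p = 0.00421). Nup98, a mobile protein of the pore, fell by 0.65 (SE 0.103, adjusted p = 0.00406), and both calls held whichever array was left out. The import receptors Tnpo2 (−0.80, adjusted p = 0.00978) and Kpna2 (−0.78, adjusted p = 0.0133) each lost their call without heat shock replicate 3 and without 1 other heat shock array.

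Of 26 mRNA decay factors 5 fell and 1 rose, the Zfp36l1 described above, but none fell without heat shock replicate 2. Of the control sets, replicates 1 and 3 gave 1 fall and replicates 2, 4 and 5 gave 8. Pan2, a deadenylase, fell by 0.48 (adjusted p = 0.00983), lost without heat shock replicate 2 or 3 (adjusted p = 0.0585). Cnot2, a scaffold of the CCR4-NOT deadenylase, fell at all 4 of its probesets by 0.48 to 0.66, each lost without control replicate 4 or any heat shock array.

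Zinc finger genes named Zfp, a large family of DNA- and RNA-binding proteins, mostly moved down where they passed. Called genes in general did so too (514 fell and 110 rose). Of 171 measured 18 fell (10.5%) and 1 rose (0.585%), beside 4.15% and 0.888% of all genes (median −0.10). The falls numbered 24 against control replicates 1 and 3 and 27 against control replicates 2, 4 and 5. Against these sets 2.85% and 12.7% of all genes fell. Without heat shock replicate 2 there were 5 falls in the list. Zfp955b had 6.03, 6.07 and 6.30 in the heat shock arrays, against 7.0, 7.08, 6.94, 7.34 and 7.12 in the control arrays. The groups did not overlap, and it fell by 0.96 (SE 0.109, adjusted p = 0.000379). Zfp871 (−0.86, adjusted p = 0.000725), Zfp101 (−1.09, adjusted p = 0.00255) and Zfp707 (−0.62, adjusted p = 0.00354) fell too. All these calls held whichever array was left out, and each passed against both control sets.

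Mitotic genes had the highest share of falls among the lists of at least 40 genes, but few of them passed against control replicates 1 and 3. Of 47 genes of chromosome segregation and mitosis 15 fell and 0 rose (median −0.50). Against control replicates 1 and 3 there were 2 falls (median −0.17), and against control replicates 2, 4 and 5 there were 40 falls (median −0.74). Without heat shock replicate 2 there was 1 fall, and without control replicate 1 there were 33. Kif20a, a kinesin of the dividing spindle, had 7.12, 7.11 and 7.1 in the heat shock arrays, against 7.64 and 7.89 in control replicates 1 and 3 and 8.14, 8.38 and 8.54 in control replicates 2, 4 and 5. It was below all controls and fell by 1.00 (SE 0.173, adjusted p = 0.00647), with −0.65 and −1.24 against the control sets, and its call held whichever array was left out. Kif2c, which depolymerizes microtubules (−0.71, adjusted p = 0.0133), Cdc20, an activator of the anaphase-promoting complex (−0.72, adjusted p = 0.014), and the condensin subunit Smc4 (−0.42, adjusted p = 0.014) each lost their call without heat shock replicate 2 or 3, and Smc4 also without replicate 1.

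DNA replication and G1 genes showed the same dependence. Of 44 replication genes 3 fell (6.82%, median −0.35), beside 4.15% of all genes. Against control replicates 1 and 3 there were 0 falls (median −0.09), and against control replicates 2, 4 and 5 there were 31 (median −0.48). Of all genes 2.85% and 12.7% fell against these sets. Without control replicate 2 no replication gene fell and without control replicate 1 there were 19 falls. The polymerase subunit Pold1 (−0.57, adjusted p = 0.0317) and the origin protein Orc6 (−0.65, adjusted p = 0.0324) each lost their call without any of 7 arrays. Of 26 G1 cyclins, kinases and inhibitors 5 fell (19.2%), none of them without heat shock replicate 2 and 11 without control replicate 1. There were 2 falls against control replicates 1 and 3 and 15 against control replicates 2, 4 and 5. The pocket protein Rbl2 fell by 0.74 (adjusted p = 0.00683), with an adjusted p of 0.0522 without heat shock replicate 2. Cdk4, the kinase of D-type cyclins, fell by 0.68 (adjusted p = 0.0259), lost without any of 5 arrays. Of 33 genes for repair of double-strand breaks and crosslinks 4 fell (12.1%), with 1 fall without control replicate 4 and 9 without control replicate 1. The control sets gave 2 falls (replicates 1 and 3) and 10 (replicates 2, 4 and 5). Fancf of the Fanconi anemia core complex had 6.91, 6.88 and 6.91 in the heat shock arrays, against 7.47, 7.40, 7.71, 7.83 and 7.68 in the control arrays, a fall of 0.72 (SE 0.113, adjusted p = 0.00388) that held whichever array was left out.

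Of 18 caspases, cofactors and inhibitors of apoptosis 3 fell and 1 rose (median −0.02), with 3 falls and 1 rise against control replicates 1 and 3 and 5 falls and 4 rises against control replicates 2, 4 and 5. Apaf1, the scaffold of the apoptosome, had 7.54, 7.42 and 7.30 in the heat shock arrays, against 8.05, 8.02, 8.10, 7.99 and 8.07 in the control arrays. It fell by 0.63 (SE 0.0948, adjusted p = 0.00318). Xiap, an inhibitor of caspases, fell by 0.63 (SE 0.102, adjusted p = 0.00456) at its brightest probeset and passed at no other, and both calls held whichever array was left out. Cflar, the decoy of caspase-8, had 8.68, 8.68 and 8.60 in the heat shock arrays, against 8.03, 8.41, 8.11, 8.01 and 8.20 in the control arrays, a rise of 0.50 (adjusted p = 0.0135) lost without any heat shock array. Without control replicate 4 the list had 2 falls, and without heat shock replicate 1 no rise. Of 16 genes of the BCL2 family none passed by limma (median 0.04), with 1 higher and 1 lower by unadjusted p under 0.05.

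Of the 18 melanocyte markers 4 fell and 0 rose (median −0.19), with none without heat shock replicate 2 and 6 without control replicate 1. The median was −0.03 against control replicates 1 and 3, with 2 falls, and −0.29 against control replicates 2, 4 and 5, with 8 falls. Their summed linear signal was 39930 to 42230 in the heat shock arrays, against 43630 to 56230 in the control arrays. Sox10, a factor of the neural crest, had 7.44, 7.04 and 7.54 in the heat shock arrays at 1425369_a_at, against 8.91, 9.28, 7.85, 9.17 and 9.65 in the control arrays. It fell by 1.63 (SE 0.291, adjusted p = 0.00804), and its adjusted p was 0.0607 without heat shock replicate 2. Mc1r, the receptor of melanocortin, fell by 1.35 (SE 0.238, adjusted p = 0.00745), with an adjusted p of 0.0573 without that array. Mlph, which carries pigment granules (−0.97, adjusted p = 0.0221), and its partner Rab27a (−1.56 at 1425285_a_at, adjusted p = 0.0131) each lost their call without any heat shock array, and Mlph also without control replicate 4. Rab27a did not pass at its brightest probeset (0.13, adjusted p = 0.424). Tyr, the key enzyme of melanin, fell by 0.39 (adjusted p = 0.0415), lost without any of 7 arrays. Neither Mlph (−0.47, adjusted p = 0.0768) nor Tyr (−0.23, adjusted p = 0.296) passed against control replicates 1 and 3. None of the epithelial, fibroblast and leukocyte markers passed by limma (medians 0.13, 0.08 and 0.26), with 0, 1 and 0 higher by unadjusted p under 0.05. Their summed linear signals were 1395 to 1462, 1648 to 1788 and 1292 to 1333 in the heat shock arrays, against 1198 to 1438, 1613 to 1772 and 1028 to 1228 in the control arrays. Their part in the changes above was not tested.

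Probesets of a gene often did not pass together. Of 721 called genes with several probesets, 56 passed at all of them and 665 at some. Son, a protein that holds nuclear speckles together, fell at 5 of its 6 probesets, by 0.50 to 0.88, with the deepest held whichever array was left out (1420951_a_at, −0.88, adjusted p = 0.00318). At its brightest probeset, 1420952_at, the heat shock arrays had 9.45, 9.45 and 9.48, against 9.33, 9.45, 9.93, 9.73 and 9.41 in the control arrays, and the change of −0.11 did not pass (adjusted p = 0.656). Ppargc1a, the coactivator PGC-1alpha, fell at 4 of 5 probesets, by 0.70 to 1.33. Its brightest, 1460336_at, did not pass (−0.67, adjusted p = 0.237), and the groups overlapped there. At 1437751_at Ppargc1a had 6.45, 6.48 and 6.65 in the heat shock arrays, against 7.47, 7.84, 7.20, 7.76 and 7.97 in the control arrays (−1.12, SE 0.149, adjusted p = 0.00136). The Lipofectamine arrays were as low there, at 6.76, 6.61 and 6.75. Brca1, which repairs double-strand breaks, fell at 3 of 4 probesets by 0.79 to 1.32, with −0.28 to −0.65 against control replicates 1 and 3, and each call was lost without at least 5 arrays.

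In 3 genes a probeset rose and another fell. Coro1c, an actin-binding protein, rose by 0.66 (adjusted p = 0.0392) at 1437721_at and fell by 1.34 (adjusted p = 0.038) at 1417752_at and by 1.15 (adjusted p = 0.0324) at 1449660_s_at. Each of its calls was lost without at least 6 arrays. Ddx5, an RNA helicase, rose at 1433809_at, with 7.69, 7.84 and 7.88 in the heat shock arrays against 7.32, 7.35, 7.30, 7.45 and 7.44 in the control arrays. It fell at 1423645_a_at, with 8.36, 8.66 and 8.82 in the heat shock arrays against 9.34, 9.51, 9.12, 9.39 and 9.59 in the control arrays. These changes were 0.43 (adjusted p = 0.0274), lost without control replicate 4 or any heat shock array, and −0.78 (adjusted p = 0.00909), lost without heat shock replicate 1. Tm7sf3, a membrane protein, rose by 0.34 (adjusted p = 0.0469) and fell by 0.49 (adjusted p = 0.0107) at its probesets, calls lost without any of 7 and any of 2 arrays.

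Of 45 genes of oxidative phosphorylation 1 rose and 0 fell (median 0.02). That was Cox7c, a subunit of cytochrome oxidase, read at 1459885_s_at, a probeset of the kind left out when cross-hybridizing probesets were removed. It had 6.77, 6.58 and 6.86 in the heat shock arrays, against 5.74, 5.92, 6.08, 5.91 and 5.92 in the control arrays. Those control signals were below the median of each control array. The groups did not overlap, and the rise of 0.82 (SE 0.108, adjusted p = 0.00125) was alike against control replicates 1 and 3 (0.83) and control replicates 2, 4 and 5 (0.82). Of 29 genes of glycolysis and the hypoxia response 2 rose (6.9%) and 2 fell (6.9%), with a median of 0.03. The list had 1 rise and 3 falls against control replicates 1 and 3, and 7 rises and 6 falls against control replicates 2, 4 and 5. Without heat shock replicate 1 none rose, and without control replicate 3 there were 5 rises. P4ha1 and P4ha2, subunits of the enzyme that hydroxylates proline in collagen, rose by 0.82 (adjusted p = 0.0143) and 0.83 (adjusted p = 0.0192), with 0.45 and 0.44 against control replicates 1 and 3 and 1.08 each against control replicates 2, 4 and 5. These calls were lost without any of 2 and any of 3 arrays. Hilpda, a protein of lipid droplets, had 6.93, 6.91 and 6.84 in the heat shock arrays, against 7.49, 7.33, 7.72, 7.54 and 7.5 in the control arrays, a fall of 0.62 (adjusted p = 0.00368) that held whichever array was left out. Hk2, a hexokinase, fell by 0.37 (adjusted p = 0.0462), lost without any of 7 arrays. The change of largest size in that list was that of Ddit4, an inhibitor of mTOR, named after its values were seen. It had 11.32, 11.36 and 11.49 in the heat shock arrays, against 10.7 and 10.95 in control replicates 1 and 3 and 7.1, 7.3 and 6.83 in control replicates 2, 4 and 5, and the change of 2.82 did not pass (adjusted p = 0.0611).

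Of 254 solute carriers 5 rose (1.97%) and 3 fell (1.18%), beside 0.888% and 4.15% of all genes (median 0.08). The list had no rise without heat shock replicate 1 and no fall without heat shock replicate 2. The control sets gave 0 rises and 4 falls (replicates 1 and 3) and 26 rises and 23 falls (replicates 2, 4 and 5). Of all genes 0.71% rose and 2.85% fell against the first set, and 7.89% rose and 12.7% fell against the second.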

How the data were processed

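Total RNA of B16-F10 cells was hybridized to Affymetrix arrays, 1 array a sample. Scanned arrays were processed by the authors with GCOS 1.2 and then RMA, which corrects background, normalizes arrays to a shared distribution and summarizes probes, and they deposited the resulting log2 values. The version of RMA and which arrays were normalized together are not given in the sources used here. No array has a scan date or batch in these sources.

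From these values all results were derived in limma 3.58.1 under R 4.3.3, without the 64 control probesets of Affymetrix and with no filter on signal. Of the 22626 probesets tested 20380 carry 1 gene symbol, 691 several and 1555 none in the platform annotation, whose symbols needed 0 updates through Entrez identifiers. Names of genes come only from probesets with 1 symbol. The 3 heat shock, 3 Lipofectamine and 5 control arrays were fitted in 1 linear model with moderated variance (5.507 prior degrees of freedom, 8 residual), after the methods of the study, which compare these groups by a random-variance F-test. Adjustment of p followed Benjamini and Hochberg and ran over all 22626 probesets. In lists a gene is represented by its brightest probeset over the 14 arrays, whereas genes named for a large change are read at the probeset with the largest change. The number of arrays limits the precision, and a log2 change is a difference of group means.

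The rule named the 12 largest rises and 12 largest falls whose heat shock arrays lie outside the control range, and up to 4 passing members of each list by smallest p. It also named the 4 genes with the most passing probesets and genes with opposite calls. Any gene of the chaperone lists could be named too, and only part of them are. The comparison and the lists, written by hand from general knowledge, were chosen with earlier results of these data known, so no count is independent evidence.

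Alternatives were the arrays of the 2 groups alone, all 14 arrays, an unmoderated test, array weights, a variance trend, the random-variance test (its prior with 5.6 degrees of freedom), the threshold of the methods (p under 0.001), a fold of 1.5, renewed quantile normalization, equal medians, removal of dim or cross-hybridizing probesets, single control sets, a replicate block and each array left out. The model fits were checked on simulated data. The study's own fold changes were not used here.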

Additional observations from a re-analysis of the deposited data

Results flagged for a closer look

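The Hspa1b signal at probeset 1427126_at was 4.3 in control replicate 3, far below the 5.13 to 5.44 of the other controls, and the rise of 6.00 held whichever array was left out. The Grpel2 signal was 8.7 in control replicate 1, below the 8.88 to 8.95 of the others. These were 2 of 137 groups of control values examined for a sample far from the rest, where chance alone gives about 1 in 20.

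The benzyl alcohol arrays stood outside every comparison above. At 23 of 47 named probesets that rose with heat shock, all 3 benzyl alcohol arrays were also above every control array. Not every named gene is covered, since P4ha1 and P4ha2 are not among the 47. The share over all probesets was not computed, and the 47 include several probesets of the same gene. The count is therefore only a description. At the Hspb1 probeset 1425964_x_at the benzyl alcohol arrays had 12.18, 11.49 and 12.71, and at the Hspa1a probeset 4.86, 4.72 and 9.0. Their recovery is not the same in the descriptions of the series, so no comparison with heat shock was made.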

How the results depend on the processing

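Higher and lower probesets numbered 84 and 242 with an unmoderated test, 2065 and 3824 with array weights, 96 and 453 at the threshold of the methods, 96 and 601 with a fold of 1.5, 156 and 685 with control replicates 1 and 3 only and 1654 and 3276 with control replicates 2, 4 and 5 only. Higher probesets were 407 after renewed quantile normalization and 133 without the dim part of the probesets, where lower ones stayed within 1.5 times of 1112. With the replicate number as a block (replicate block) there were 51 and 141. The labels do not say that a number marks a shared day, and same-numbered arrays deviated together with correlations of 0.01, 0.123 and 0.065, so the numbers were not taken as pairs. With single arrays left out the counts ran from 61 to 630 higher and from 198 to 2028 lower, lowest without heat shock replicate 2 and highest without control replicate 3. The cause of these shifts was not tested. The other settings, which are the arrays of both groups alone, all 14 arrays, the random-variance test, a variance trend, equal medians and removal of cross-hybridizing probesets, kept both counts within 1.5 times. Over the settings, changes were recomputed for 137 named probesets, which leave out genes such as P4ha1 and Ddit4. Of these changes 546 fell below the threshold with an unchanged direction, 31 newly passed and 2938 kept their side of it. A reversal was counted where the direction changed and either change passed. By this rule only Trib3 reversed, at −0.61 against control replicates 1 and 3 only. Ddit3, Dnajb2, Hspa5 and Fkbp4 (at 1416362_a_at) also changed direction against that set, without passing in either fit. Against Lipofectamine only Klf10 reversed, at −0.18 with array weights, where the main value of 0.04 had not passed. Signals near the lower end of the scale have no order that can be trusted, since detection calls were not used here.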
